A study of Mus musculus with 4 samples.

Results

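The miR-17-92 polycistron is a cluster of microRNAs (miRNAs) cut from 1 primary transcript, and its mature products were read here on miRNA arrays of mouse neural stem and progenitor cells. Members were chosen by name, with earlier results of these data known. They are the 9 mature miRNAs of the cluster that the rule listed out of 611 mouse miRNAs on the array. The guides are mmu-miR-17, mmu-miR-18a, mmu-miR-19a, mmu-miR-20a, mmu-miR-19b and mmu-miR-92a. The star strands are mmu-miR-17*, mmu-miR-18a* and mmu-miR-20a* (the mouse prefix mmu is left out from here on). Of the 9 members, 8 were well above background on all 4 arrays, as were 153 of the 611 miRNAs. miR-18a* was well above background on the primary arrays alone and is described separately.

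The cells were neural stem and progenitor cells made from mouse embryonic stem cells and grown as neurospheres, which are floating balls of dividing neural cells. Each of the 4 groups had 1 array. Primary neurospheres were at passage 0, after 6 days of culture from embryoid bodies, and secondary neurospheres at passage 1, after 12 days. At each passage, cells overexpressing NFIA, a transcription factor tied to the onset of astrocyte formation, and control cells grew in the same mixed spheres and were separated by fluorescence-activated cell sorting. The 4 groups were therefore primary control, primary NFIA OE (overexpression), secondary control and secondary NFIA OE by sample title. The source names contradict the titles in both passages: each array titled control is described there as the NFIA OE line, and each array titled NFIA OE as WT (wild type). Groups below follow the titles. By the source names every title difference would turn its sign, while the comparison of passages would not change. What drives NFIA, and whether the overexpressing line is 1 clone, is not stated in the labels. Passage and days in culture cannot be told apart, and both arrays of each passage trace back to the same mixed spheres. The p-values therefore speak for the scatter among these 4 arrays and not for other cultures.

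A miRNA hairpin yields 2 mature strands, a guide that is loaded into Argonaute and a star strand that is mostly degraded. Hairpins cut from 1 transcript start in equal number. Where a mature miRNA has no other locus, unequal levels come from later steps such as cropping by Drosha, dicing, strand choice and decay. The miR-17-92 cluster, driven by Myc and E2F factors, is known for promoting proliferation. In the developing cortex it is known for keeping progenitors dividing, with miR-92a acting on Eomes, the factor that marks intermediate progenitors.

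The cluster lies on chromosome 14 of the mouse genome, on the plus strand, at chr14:115043671-115044506 of RefSeq's GRCm38.p6 assembly. Its 6 hairpins, Mir17, Mir18, Mir19a, Mir20a, Mir19b-1 and Mir92-1 in that order, take up 836 bases with gaps of 35 to 96 bases. All 9 members matched RefSeq entries of that build. The mature sequences are shown, 5′ to 3′ with the seed (bases 2 to 8) in capitals, because the 6 guides carry 4 different seeds, and the passage and strand comparisons run within and across these seed groups.
miR-17: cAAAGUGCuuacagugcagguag
miR-20a: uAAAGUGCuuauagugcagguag
miR-18a: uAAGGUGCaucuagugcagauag
miR-19a: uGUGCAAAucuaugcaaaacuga
miR-19b: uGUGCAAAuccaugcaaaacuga
miR-92a: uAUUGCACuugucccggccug
miR-17*: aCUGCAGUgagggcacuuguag
miR-18a*: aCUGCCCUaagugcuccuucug
miR-20a*: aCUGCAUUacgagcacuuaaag
Counting from 1 at the 5′ end, miR-17 and miR-20a share a seed and differ by C1U and C12U, and miR-19a and miR-19b share a seed and differ by U11C. miR-18a and miR-92a each have a seed of their own among the members, and no seed is shared between a guide and a star strand.

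The hairpins that give the guide and star pairs are shown next, with both measured strands in capitals. In each, the guide is the 5′ arm and the star strand the 3′ arm.
Mir17: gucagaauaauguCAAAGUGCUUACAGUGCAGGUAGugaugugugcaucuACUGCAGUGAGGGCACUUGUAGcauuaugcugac
Mir18: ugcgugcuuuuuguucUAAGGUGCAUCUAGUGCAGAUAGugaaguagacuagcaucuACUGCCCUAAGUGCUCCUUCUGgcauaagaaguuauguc
Mir20a: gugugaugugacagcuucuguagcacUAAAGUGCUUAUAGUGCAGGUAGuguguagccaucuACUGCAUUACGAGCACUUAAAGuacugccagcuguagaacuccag
miR-19a, miR-19b and miR-92a are 3′ arms of their hairpins.

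Not every member can be traced to this locus alone. Mature miR-19b and miR-92a are each encoded at 2 loci, the second being Mir19b-2 and Mir92-2 on chromosome X. The probes for miR-17 are also annotated for miR-106a, which differs from miR-17 by U10A, so the array does not tell these apart.
miR-106a: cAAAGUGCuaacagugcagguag
The mature sequences of miR-18a, miR-19a, miR-20a and the 3 star strands have 1 locus each. Other close sequences have probes of their own, such as miR-19a and miR-19b, which differ by 1 base. miR-20a and miR-20b differ by 2 bases, as do miR-92a and miR-92b. Whether signal crosses between such probes was not tested.

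Array brightness set the frame for all levels. The 75th percentile of intensity over the 252 probes detected on all 4 arrays was 167 units on the primary control-titled array, 261 on the primary NFIA OE-titled array, 443 on the secondary array titled control and 369 on that titled NFIA OE. The arrays detected 186 to 220 mouse miRNAs. All 4 miRNAs listed as neural markers (miR-9, miR-9*, miR-124 and miR-125b-5p) were detected on every array. Their summed level, relative to the array's 75th percentile, was 18.3 and 23.7 at passage 0 and 48.6 and 36.9 at passage 1. The sum hides unequal directions. On the scaled values miR-9, miR-9* and miR-125b-5p were higher at passage 1. miR-124, a neuronal miRNA and not a progenitor marker, was lower (log2 difference -1.284). The 12 markers of pluripotent cells, of the miR-290 and miR-302 clusters, had a lower sum at passage 1. Of these, 10 and 11 were detected at passage 0, and 1 and 7 at passage 1 (control-titled and NFIA OE-titled). Their summed levels were 12.5, 10.7, 0.587 and 1.18 on the 4 arrays in that order. Of 11 markers of muscle, blood, liver and endothelium, 0 were detected on any array, with summed levels of at most 0.0959. The part of the pluripotent and neural markers' shift in the results below was not tested. In bulk RNA, fewer cells of a type and less of a miRNA per cell cannot be told apart.

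Relative to the array's 75th percentile, all 8 measured members were lower in secondary than in primary neurospheres, from 1.80-fold for miR-19b to 2.74-fold for miR-92a. limma called 8 of 8 at an adjusted p under 0.05, where 32.7% of the 153 miRNAs were called lower and 45.8% in either direction. The members' median log2 difference was -1.03, against -0.39 over all 153 miRNAs. Since the typical miRNA was also lower on this scale, the same fit was read relative to that median, and 4 of the 8 (miR-17, miR-18a, miR-19a and miR-92a) were then called, against 17.6% of all miRNAs called lower. Both secondary arrays were below both primary arrays for all 8 members and for 56.9% of all miRNAs.

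The values follow by seed group, each as unscaled processed intensity on the primary arrays (titled control, then titled NFIA OE) and then on the secondary arrays in the same order. Each log2 passage difference is secondary minus primary on the scaled values, with 2 arrays per passage and an SE of 0.295. Levels of different miRNAs are not set against each other, since each has its own probes.

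miR-17 and miR-20a, the guides of the AAAGUGC seed, are known to act on cell cycle inhibitors and on the TGF-beta pathway. miR-17 read 39.6, 44.6, 41.6 and 30.9 units, the lowest being the secondary NFIA OE-titled array. After scaling these were log2 values of -2.08, -2.55, -3.41 and -3.57, so both secondary arrays lay below both primary arrays. Its passage difference was -1.18, or 2.27-fold lower (limma adjusted p = 0.00049), and rests on 1 of its 2 probes, since the other stayed at background on all 4 arrays. miR-20a read 929, 1106, 1185 and 873 units, with the secondary arrays on either side of the primary ones. On the scaled log2 values of 2.40, 2.01, 1.35 and 1.17 the passages did not overlap, and the difference was -0.94 (1.92-fold lower, limma adjusted p = 0.00559). Its 2 probes gave -0.93 and -0.95.

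miR-18a, the lone guide of the AAGGUGC seed in the cluster, is known for needing the RNA-binding protein hnRNP A1 for cropping of its hairpin. It read 299, 384, 269 and 224 units, so the secondary arrays were the lower pair even before scaling. The scaled log2 values were 0.78, 0.50, -0.78 and -0.78. Its difference was -1.42, or 2.68-fold lower (limma adjusted p = 2.155e-05), and -1.03 relative to the median miRNA (limma adjusted p = 0.00273). The 2 probes differed by -1.44 and -1.40 between passages.

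miR-19a and miR-19b carry the GUGCAAA seed, the group best known for oncogenic activity of the cluster. miR-19a read 425, 543, 497 and 372 units, with scaled log2 values of 1.33, 1.04, 0.15 and -0.0016. It was 2.16-fold lower at passage 1 (difference -1.11, limma adjusted p = 0.00098). miR-19b read 1348, 1756, 1906 and 1437 units, with the highest value on the secondary control-titled array. Its scaled log2 values were 2.93, 2.67, 2.02 and 1.88, and its difference of -0.85 (limma adjusted p = 0.0128) was the smallest among the members. Relative to the median miRNA, miR-19a stood at -0.72 (limma adjusted p = 0.0451) and miR-19b at -0.46 (limma adjusted p = 0.239).

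miR-92a is the last hairpin's guide and the member with a seed used by miR-25, miR-363 and miR-92b. It read 913, 977, 717 and 616 units, and like miR-18a it was lower on both secondary arrays before scaling. The scaled log2 values were 2.25, 1.71, 0.49 and 0.56, a difference of -1.46 (limma adjusted p = 1.452e-05), and -1.06 relative to the median miRNA (limma adjusted p = 0.00197). Its probes gave -1.45 and -1.46. The control-titled pair differed by -1.75 and the NFIA OE-titled pair by -1.16, the widest gap between pairs among the members.

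The star strands changed by nearly the same amount as each other. miR-17* read 82.0, 120, 104 and 95.6 units, or -1.13, -1.21, -2.17 and -2.04 as scaled log2 values, with a passage difference of -0.94 (limma adjusted p = 0.00573). miR-20a*, read by 2 of its 4 probes, stood at 46.2, 66.4, 59.9 and 52.0 units, or -1.86, -1.98, -2.90 and -2.83, and also differed by -0.94 (limma adjusted p = 0.00559). For both, the highest intensity before scaling was on the primary NFIA OE-titled array and the lowest on the primary control-titled array. Neither was called relative to the median miRNA, at -0.55 for each (limma adjusted p = 0.149 for miR-17* and 0.147 for miR-20a*). miR-18a* was well above background through 1 of its 4 probes on the primary arrays (19.9 and 20.6 units) and through none on the secondary arrays (10.3 and 14.4 units). With its secondary values set to the lowest detected signal of each secondary array, its scaled fold was at least 1.91. It was 2.40 in the control-titled pair and 1.52 in the NFIA OE-titled pair. Detected on the primary arrays alone, miR-18a* could only come out lower, so these are bounds and not a test of direction. The star strands of the miR-19a and miR-92a hairpins on the array, miR-19a* and miR-92a*, were detected on 0 of 4 arrays.

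**Figure D1:**
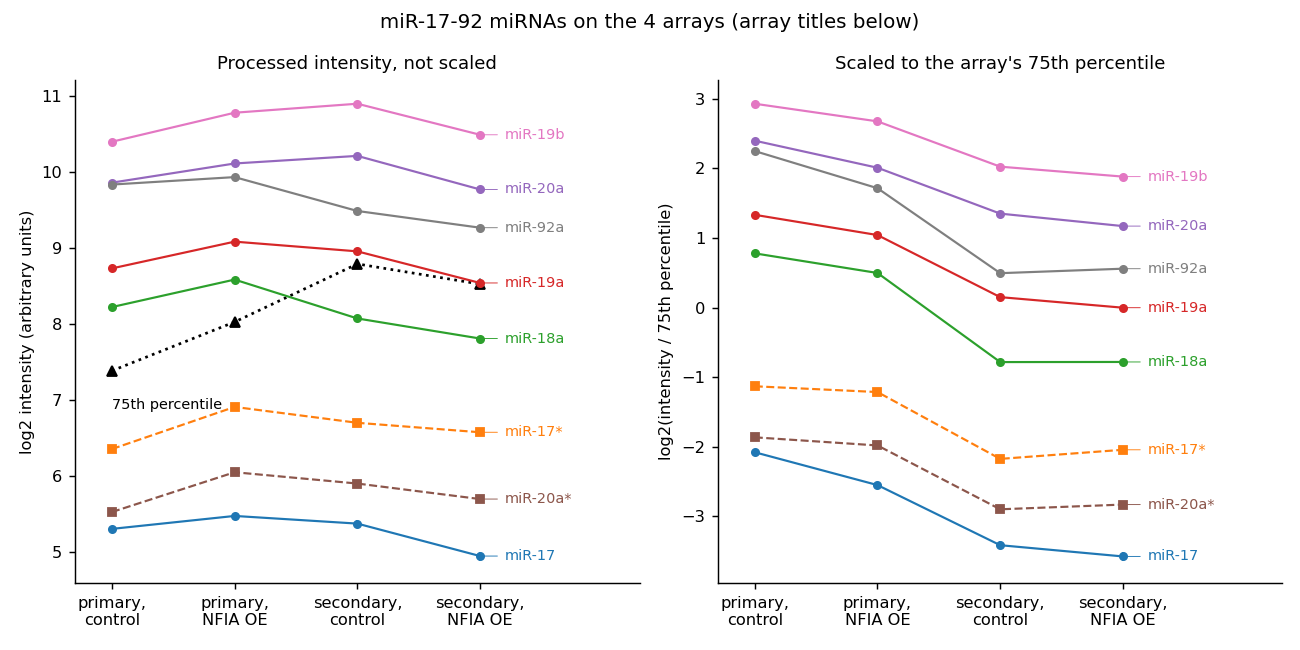
Log2 processed intensity (left, with the array's 75th percentile as triangles) and log2 of intensity over that percentile (right) of the 8 measured members on the 4 arrays, 1 point per array; circles are guides and squares star strands, and lines join points for reading only. The percentile rises from 167 to 443 units between the control-titled arrays while the members' own intensities stay within a narrow band, and on the scaled side all 8 are lower on both secondary arrays; heights of different miRNAs are not comparable.

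The plot of levels by array shows how far the fall rests on the scaling. Before scaling, the passage difference was 0.015 for miR-17*, 0.0081 for miR-20a, 0.0096 for miR-20a*, 0.10 for miR-19b, -0.16 for miR-19a, -0.23 for miR-17, -0.47 for miR-18a and -0.50 for miR-92a, while the median of all 153 miRNAs was 0.56. The split of all limma calls moved likewise, from 50 lower and 20 higher under the main scaling to 39 and 22 under median centring, 17 and 39 for the authors' deposited processed values, 5 and 25 with the 75th percentile over all probes, and 1 and 20 with no scaling. With no scaling, limma called 0 of the 8 (0 at an unadjusted p under 0.05). For 6 of the 8 the unscaled difference was above 0 in the control-titled pair and below 0 in the NFIA OE-titled pair. Of these, miR-17 was at 0.07 and -0.53, miR-19a at 0.22 and -0.55, and miR-19b at 0.50 and -0.30. miR-18a (-0.16 and -0.78) and miR-92a (-0.35 and -0.66) were below 0 in both pairs. Against the median difference of all tested miRNAs, 8 of 8 members lay lower under the main setting, with a gap of -0.64 at the members' median. Of the 11 alternatives, 5 shift every miRNA alike and so cannot change that place. In the other 6 (normexp, quantile normalization, the authors' deposited values, the brightest probe and both looser detection filters) all 8 lay below the median too. With no detection filter the gap at the members' median was -0.24. There only 252 of 611 miRNAs were detected on any array, and undetected values were set to the array's lowest detected signal. That median (-0.70) therefore comes from set values, and the gap to it does not place the members among measured miRNAs. Leaving that setting aside, the gaps ran from -0.35 to -0.85.

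**Figure D2:**
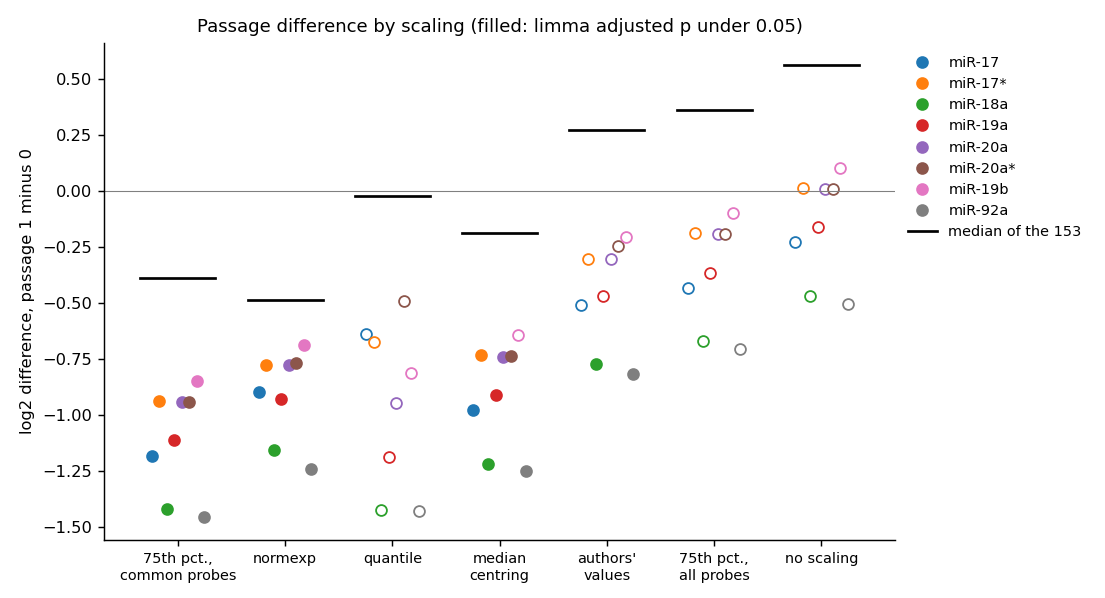
Log2 passage difference (passage 1 minus passage 0) of the 8 measured members under 7 ways of scaling or correcting the arrays, with the median of all 153 miRNAs as a bar; filled points had a limma adjusted p under 0.05. The whole set moves with the scaling, from a median of -1.03 with the 75th percentile of commonly detected probes to -0.077 with no scaling, and the bar moves with it, by the same amount wherever the settings differ only in 1 constant per array.

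Single pairs of arrays gave unequal sizes. In the control-titled pair 7 of 8 members were at least 2-fold lower at passage 1, where 26.8% of all miRNAs were, and the exception was miR-19b at -0.90. In the NFIA OE-titled pair 4 of 8 were (miR-17, miR-18a, miR-19a and miR-92a), where 16.3% of all miRNAs were. On the scaled values, the difference was smaller in the NFIA OE-titled pair for 8 of 8 members and for 108 of the 153 miRNAs. Before scaling, each member's difference was lower in the NFIA OE-titled pair than in the control-titled pair. It was -0.78 against -0.16 for miR-18a and -0.66 against -0.35 for miR-92a. The members' median was -1.12 in the control-titled pair and -0.94 in the NFIA OE-titled pair, against -0.41 and -0.40 over all miRNAs. These single pairs have no replicate and no test. The primary control-titled array, the dimmest, enters the first pair alone, and the second pair gives the values without it.

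**Figure D3:**
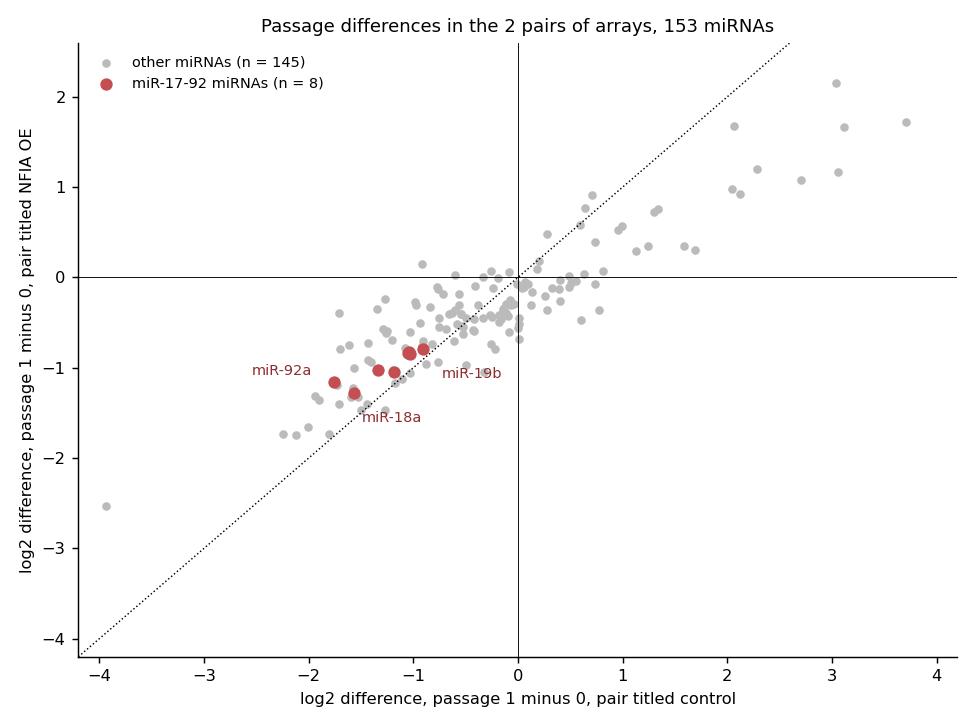
Log2 passage difference in the control-titled pair (x axis) against that in the NFIA OE-titled pair (y axis) for 153 miRNAs, with the 8 measured members in colour and the dotted line marking equal differences. On these scaled values the members sit together below 0 on both axes and above the dotted line, from miR-19b at -0.90 and -0.79 to miR-92a at -1.75 and -1.16.

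Along the transcript, the passage difference was not ordered by hairpin: miR-17 and miR-18a from the first 2 hairpins stood at -1.18 and -1.42, miR-19a, miR-20a and miR-19b from the next 3 at -1.11, -0.94 and -0.85, and miR-92a from the last at -1.46. Nor did it follow the arm, since the 5′ arm guides ran from -1.42 to -0.94 and the 3′ arm guides from -1.46 to -0.85. Within a seed group, miR-17 and miR-20a were 0.24 apart and miR-19a and miR-19b 0.26 apart, each less than the SE of 1 difference. These are descriptions of 8 values that share arrays and, at most, 1 transcript.

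**Figure D4:**
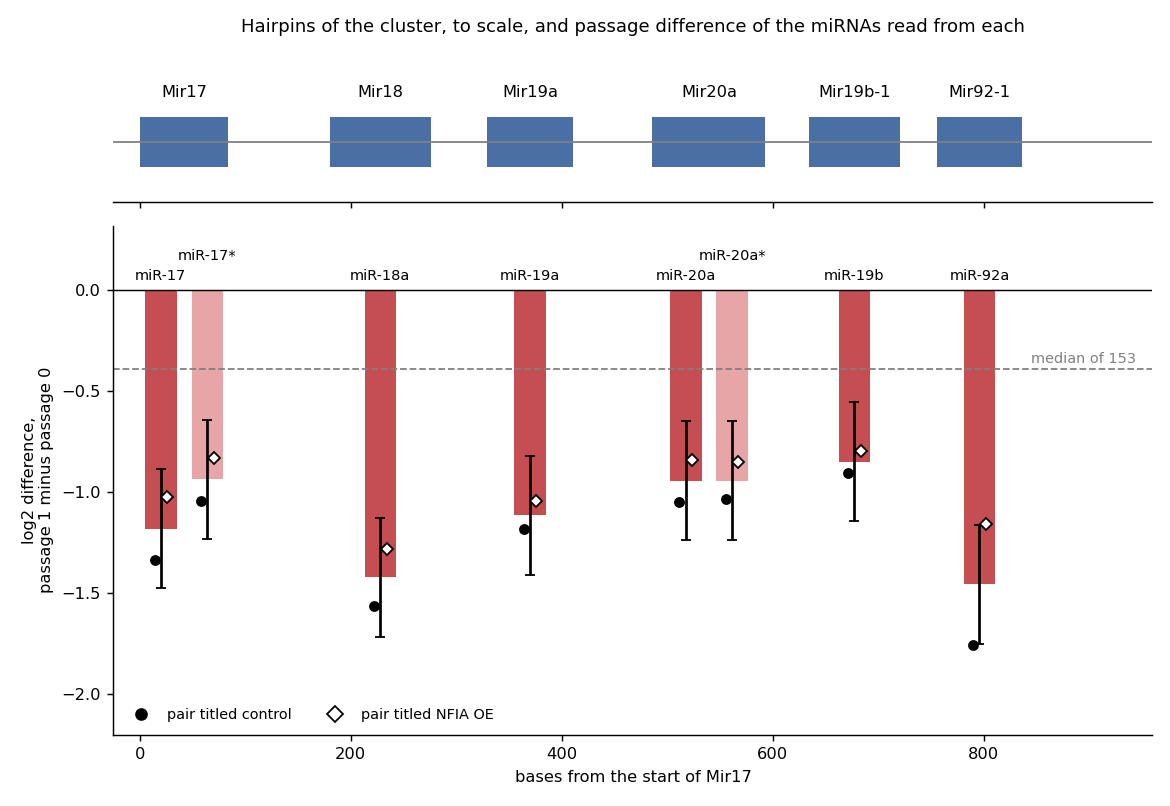
The 6 hairpins of the cluster to scale (top, bases from the start of Mir17) and the log2 passage difference of the miRNAs read from each (bottom); bars are the fitted difference, error bars ± 1 SE (0.295), circles the control-titled pair, diamonds the NFIA OE-titled pair, and pale bars star strands. Bars run from -0.85 for miR-19b to -1.46 for miR-92a, all below the dashed median of 153 miRNAs at -0.39, and the longest belong to Mir18 and Mir92-1.

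Whether members of the 1 transcript differed unequally was tested on ratios within an array, in which any scaling between arrays cancels. Of the other 7 members, 0 had a ratio to miR-17 that changed between passages by limma, at an adjusted p of 0.309 to 0.832 (0 at an unadjusted p under 0.05), where 40.1% of 152 miRNAs were called. The changes in log2 ratio were -0.28 for miR-92a, -0.24 for miR-18a, 0.07 for miR-19a, 0.24 for miR-20a, miR-17* and miR-20a*, and 0.33 for miR-19b. Against miR-18a, limma called 0 of 7 members (0 at an unadjusted p under 0.05; adjusted p 0.126 to 0.936), where 69.1% of miRNAs were called. Against miR-20a it called 0 of 7 members (0 at an unadjusted p under 0.05), but there 0% of all miRNAs were called (67 of 152 at an unadjusted p under 0.05), and with a wider SE of 0.417, which allows for the error of the reference, it called 0 of 7 members (0 at an unadjusted p under 0.05), where 23.7% of miRNAs were called. The ratios to miR-20a that changed most were those of miR-18a and miR-92a. The miR-18a ratio changed by -0.48, with -0.51 in the control-titled and -0.44 in the NFIA OE-titled pair, and the miR-92a ratio by -0.51, with -0.71 and -0.32. With the wider SE the 95% intervals were -1.30 to 0.35 for miR-18a and -1.34 to 0.31 for miR-92a, so 4 arrays leave room for a difference of more than 2-fold and for none.

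The log2 ratio of star to guide strand was read the same way. For the Mir20a hairpin it was -4.26, -3.99, -4.25 and -4.00 on the 4 arrays in the order above, so the arrays paired by title and not by passage. The passage change was 0.0016, with 0.014 in the control-titled pair and -0.011 in the NFIA OE-titled pair (limma adjusted p = 0.993, 95% interval -0.82 to 0.83 with the wider SE). For the Mir17 hairpin the log2 ratio was 0.95, 1.34, 1.24 and 1.53, with the lowest value on the primary control-titled array. It changed by 0.24 between passages (limma adjusted p = 0.429, 95% interval -0.58 to 1.07 with the wider SE), and the miR-17 side of it includes any miR-106a. Against miR-20a, whose guide has 1 locus, miR-17* changed by 0.0068 between passages. The absolute size of such a ratio compares 2 different probes and is not read here.

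**Figure D5:**
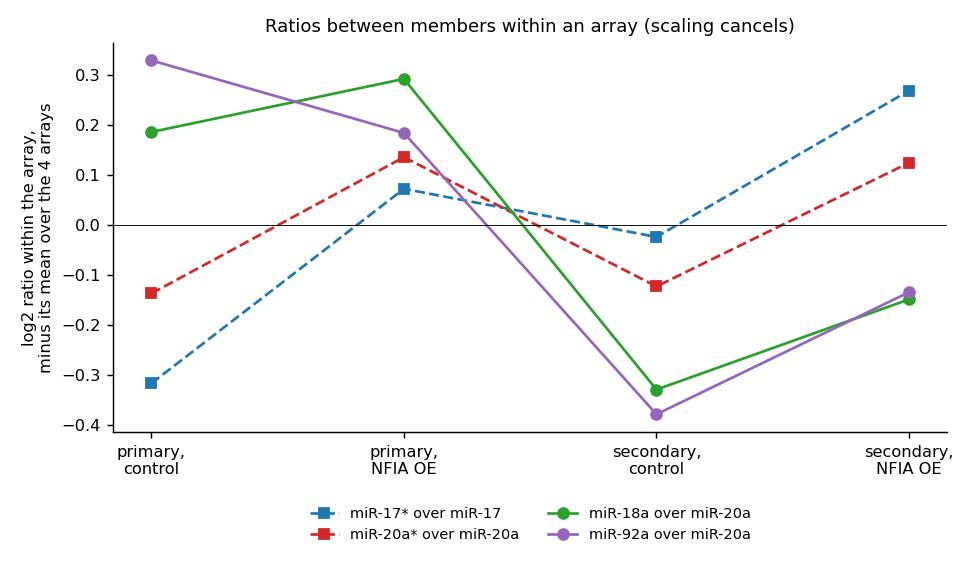
Log2 ratio between 2 members within each array, minus the ratio's own mean over the 4 arrays, 1 point per array; squares with dashed lines are star over guide of the Mir17 and Mir20a hairpins, circles are miR-18a and miR-92a over miR-20a. The star over guide ratio of Mir20a is higher on both NFIA OE-titled arrays, at -3.99 and -4.00 against -4.26 and -4.25, and the circles are lower on both secondary arrays.

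The title comparison asks which miRNAs differ with NFIA overexpression. limma called 0 of the 8 members (0 at an unadjusted p under 0.05, adjusted p 0.89 to 0.972), where 2.61% of the 153 miRNAs were called. By value, 7 of 8 members had a negative difference (NFIA OE-titled minus control-titled), where 50.3% of all miRNAs were. The log2 differences ran from -0.32 for miR-17 (-0.47 in the primary and -0.16 in the secondary pair) to 0.02 for miR-17* (-0.08 and 0.13). All 6 guides were below 0 (miR-20a at -0.28, miR-92a at -0.23, miR-19a at -0.22, miR-19b at -0.20 and miR-18a at -0.14), and miR-20a* was at -0.02. The direction of miR-19b turned with quantile normalization (0.14), and those of miR-18a (0.048) and miR-20a* (0.16) with no scaling. That of miR-17* turned with 5 settings, among them the authors' deposited processed values (-0.11). On the scaled values, all 8 members were lower on the NFIA OE-titled array at passage 0, with a median of -0.29. At passage 1, 4 of 8 were, with a median of -0.07. Before scaling the directions differed. Each member read higher on the NFIA OE-titled array at passage 0 (miR-92a 977 against 913 units) and lower at passage 1 (616 against 717 units). The 75th percentile was 167 and 261 units on the primary arrays and 443 and 369 on the secondary arrays, control-titled first.

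The star over guide ratios were read by title after their values had been seen. On the arrays titled NFIA OE, miR-20a* over miR-20a was higher by 0.27 in the primary and 0.25 in the secondary pair. miR-17* over miR-17 was higher by 0.39 and 0.29 in those pairs. Neither was called by limma (difference 0.26, adjusted p = 0.493, and difference 0.34, adjusted p = 0.499; 95% intervals -0.56 to 1.08 and -0.48 to 1.16 with the wider SE). limma called 1.32% of all ratios to miR-17 by title and 0% of those to miR-20a (12 of 152 at an unadjusted p under 0.05). A ratio to miR-20a was higher on the NFIA OE-titled array at both passages for 55.3% of all miRNAs and a ratio to miR-17 for 53.9%. In 23% of miRNAs the smaller of the 2 pair differences in the ratio to miR-20a was at least that of miR-20a*, and in 18.4% that in the ratio to miR-17 was at least that of miR-17*. The strand ratios by title are therefore given as values only.

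Related miRNAs outside the cluster were listed from its paralogous clusters, miR-106a to miR-363 on chromosome X and miR-106b to miR-25, and miR-92b. Of 10 on the array, 5 were detected on all 4 arrays. limma called 5 of 5 lower at passage 1, where 32.7% of the 153 miRNAs were called lower. miR-20b, of the AAAGUGC seed, differed by -1.17 (limma adjusted p = 0.00049), miR-106b by -0.85 (0.0128), miR-93 by -0.92 (0.00656), miR-25 by -1.04 (0.00199) and miR-92b by -1.05 (0.00189). The miR-92b value rests on 1 of its 4 probes and was -1.71 in the control-titled pair and -0.39 in the NFIA OE-titled pair, or -0.31 and 0.11 before scaling. Relative to the median miRNA 1 of the 5 was called, miR-20b at -0.78, where 17.6% of all miRNAs were called lower. miR-363 was detected on the primary arrays alone. With its secondary values set to the lowest detected signal, its 2 probes had scaled folds of at least 5.32 and 3.85. It too could only come out lower, so its direction is not read as a result. Of the remaining 4, miR-18b was detected on the primary control-titled array and miR-106b* on the primary NFIA OE-titled array, each alone, and miR-20b* and miR-93* on none.

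The 4 arrays' pattern of the cluster, as the mean over the 8 members of scaled log2 values centred on each member's own mean, was 0.70, 0.40, -0.53 and -0.58. By root mean square distance over these 4 values, the 5 nearest miRNAs outside the cluster were miR-25 (0.0804), miR-130b (0.1), miR-301b (0.123), miR-93 (0.127) and miR-20b (0.128). The members themselves lay between 0.0377 (miR-19a) and 0.197 (miR-92a) from the mean they helped to set, and 14 other miRNAs were nearer to it than miR-92a. The passage differences of miR-130b and miR-301b, -0.93 and -1.17, follow from their being picked by this profile and are no further result.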

How the data were processed

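Intensity values came from the deposited scanner files of 4 one-colour arrays on 1 slide. Per the file headers, the authors used Feature Extraction 10.5.1.1, whose processed intensity is background-subtracted and not scaled between arrays. Outlier spots (265 to 300 of 13000 per array) were left out and no spot was saturated (0 per array). Spots were averaged per probe, and a probe was detected where 50% or more of the spots rose well above background. Scaling divided by the array's 75th percentile over 252 commonly detected probes, before log2. A miRNA's value averaged its probes detected on all 4 arrays. limma 3.58.1 in R 4.3.3 fitted passage and title as additive terms to 153 miRNAs, with Benjamini-Hochberg adjustment over all of them. This leaves 1 residual degree of freedom, which also holds any interaction; the empirical Bayes step pooled it to 1 SD of 0.295 for every miRNA. Within-array ratios were fitted likewise over 152 miRNAs. Because the reference's own error is shared by all ratios, a wider SE of 0.417, the square root of 2 times the pooled SD, was added after the data were seen. With 2 arrays against 2, an exact permutation test cannot go below p = 0.333. The authors' table of processed values equals the total gene signal of the scanner over an array-wide constant (column medians 0.882, 0.83, 0.701 and 0.816), on a linear scale without centring, and served as an alternative.

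The rule for named miRNAs took the 9 members, the listed paralogs and the 5 nearest profiles; cell type markers and the other strands of the cluster's hairpins are named besides. Members and lists were chosen with earlier results of these data known. Sequences are RefSeq's, GRCm38.p6. Precision is limited by the number of arrays, 1 per group.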

Additional observations from a re-analysis of the deposited data

Results flagged for a closer look

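On the scaled values, the title difference had opposite signs in the 2 passages for 4 of the 8 measured members. This change of the difference was not tested, since each pair is 1 array against 1. The difference at passage 1 minus that at passage 0 was 0.598 for miR-92a, 0.283 for miR-18a, 0.213 for miR-17* and 0.184 for miR-20a*. miR-92a went from -0.53 in the primary pair to 0.064 in the secondary pair, and miR-18a from -0.28 to 0.0016. Before scaling, each of the 8 measured members was higher on the NFIA OE-titled array at passage 0 and lower at passage 1. For miR-92a these were 913 and 977 units on the primary arrays and 717 and 616 on the secondary arrays, control-titled first. The primary control-titled array, the dimmest of the 4 at a 75th percentile of 167 units, is in every passage 0 difference; its part in these values was not tested.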

How the results depend on the processing

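The count of members called by passage depended on the scaling. It was 8 of 8 under the main scaling. It was 0 with the 75th percentile over all probes (2 at an unadjusted p under 0.05), with quantile normalization (7 unadjusted) and with no scaling (0 unadjusted). With quantile normalization limma called 0 of 153 miRNAs. The count of members was 2 with the authors' processed values, where 56 of 153 miRNAs were called (17 lower). It was 3 with no detection filter, where 57 of 611 were called (43 lower). Relative to the median miRNA it was 4, where 53 of 153 were called (27 lower). The count was 7 or 8 under the other settings, and 8 of the 8 where detection on at least 1 array was enough. miR-18a* entered that last setting through the primary arrays alone, with its secondary values set to the lowest detected signal. It could only come out lower there, so its call is not counted. The median passage difference was -1.03, and -0.28, -0.077, -0.39 and -0.64 with the 75th percentile over all probes, no scaling, the authors' values and relative to the median miRNA; leaving out 1 array gave -1.11 to -0.94, as values without a test. With no scaling, miR-17* (0.015), miR-20a (0.0081), miR-20a* (0.0096) and miR-19b (0.10) turned sign. The cause was not tested, but the median of all 153 miRNAs moved with the scaling too, from -0.39 to 0.56. By passage, 70 miRNAs were called in all, 30 with the 75th percentile over all probes, 21 with no scaling and 108 of 252 where detection on at least 1 array was enough; with normexp the calls were 73 lower and 14 higher, against 50 and 20.

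By title 0 members were called under the 11 alternatives, and the median was -0.21, from -0.34 to -0.02; leaving out 1 array gave -0.29 (either secondary array) to -0.07 (either primary array). The miR-17* title difference turned to -0.0041 with normexp, -0.086 with the 75th percentile over all probes, -0.10 with median centring and with quantile normalization, and -0.11 with the authors' values. miR-19b turned to 0.14 with quantile normalization, and miR-18a (0.048) and miR-20a* (0.16) with no scaling. Calls by title over all miRNAs were 4, and 0 to 7 elsewhere. The ratio of miR-19a to miR-17 by passage turned to -0.032 with normexp and -0.17 with no filter, and that of miR-20a to -0.0034 with no filter. No other ratio turned sign or was called. The strand ratios by title kept their sign, at 0.18 to 0.35 for Mir17 and 0.10 to 0.31 for Mir20a.

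The labels give no replicate numbers to use as a block. The additive fit already compares titles within passage and passages within title; with the other factor left out, 8 members were called by passage and 0 by title.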
